A study of Mus musculus with 22 samples.

Results

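The lymphoid transcripts described here are 6 genes: Ighm and Igkc, which encode the constant regions of the immunoglobulin mu heavy chain and kappa light chain; Cd79a and Cd79b, which encode the signalling partners of the B cell receptor; Tcf7, which encodes the T cell transcription factor TCF-1; and Gzma, which encodes granzyme A, a protease of cytotoxic granules. They mark B, T and natural killer (NK) cells and were picked out of 24828 genes in the tables. They were chosen by their known cell type with the fold changes and adjusted p-values of these same comparisons in view. They were looked up in the 5 megakaryocyte comparisons by Ensembl identifier and in the platelet comparison by symbol. Of the 6, 5 have a row in the megakaryocyte tables and 3 (Cd79b, Tcf7 and Gzma) in the platelet table; Cd79a has no row among those used here. The authors' fold changes and p-values are therefore given for them as a description.

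The study measured RNA in 22 mouse samples in 7 groups. Megakaryocytes, the polyploid platelet precursors, were taken from the marrow of adult mice (strain C57BL/6) and sorted for CD41 and ploidy. The gates were 8N and everything from 16N upward (16N-plus), with cells pooled within a sample. Both gates were collected in Cre- controls and in Pf4Cre-Srsf3fl/fl animals, called knockouts here, giving 4 groups of 3 samples. Platelet samples from the blood numbered 3 from wild type, 3 from Cre- control and 4 from Pf4Cre-Srsf3fl/fl mice. In the knockouts, Cre under the platelet factor 4 promoter deletes floxed Srsf3, a splicing factor gene, in the megakaryocyte lineage. Only the knockouts are labelled as carrying Cre, so an effect of Cre and loss of Srsf3 cannot be told apart, and whether the controls carry floxed alleles is not stated in the labels. The files are the authors' comparison tables with no value per library, so depth per library is unknown and the spread can be read only from the authors' statistics. Whether samples within a group are separate animals is not stated, so p-values do not reach beyond these samples. The authors' megakaryocyte p-values match their F scores at about 339 denominator degrees of freedom, a value fitted here. That is far above the 8 used below as an alternative for these 12 libraries. Those p-values therefore do not rest on the spread between samples of a group alone.

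B cells assemble an antigen receptor from a heavy chain, such as the mu chain, and a light chain, most often kappa in the mouse. CD79A and CD79B sit beside the membrane receptor and pass its signal into the cell, while plasma cells secrete antibody and carry very large amounts of immunoglobulin mRNA with little of the membrane machinery. TCF-1 acts in T cell development and in memory T cells, and granzyme A is stored in the granules of NK cells and cytotoxic T cells. Marrow and blood both hold lymphoid cells, which are not normally polyploid.

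The deposited tables do not say which group is the numerator. The signs used here subtract control from knockout and 8N from 16N-plus, and were set from the platelet genes: read this way, the authors' deposited table for controls gave 12 of 15 megakaryocyte markers higher at 16N-plus and 0 lower. The tables tie both signs together, so that the other reading would turn every megakaryocyte sign below and leave sizes and p-values as they are. The platelet signs were set to run with the megakaryocyte genotype tables, and could be reversed on their own. The labelled cell type was clear in the level of its markers: all 15 megakaryocyte markers lay in quartile 4, the highest, of mean log2 CPM (log2 counts scaled to library size), from 7.33 to 12.18. Srsf3 itself (ENSMUSG00000071172) did not check the labels: read as knockout minus control, the authors' deposited tables gave it 0.33 at 8N (SE 0.21; adjusted p = 0.80 by edgeR) and 0.43 at 16N-plus (SE 0.27; adjusted p = 0.56 by edgeR). Knockout and control below therefore mean the libraries labelled so. A gene was called where the authors' adjusted p was under 0.05. No standard error (SE) was deposited for megakaryocytes, so the SEs given divide each absolute log2 fold change by the root of its F. The implied variances of a gene's ploidy and genotype tables should have equal sums. They agreed within 1.5-fold for 72.0% of genes, and did not for Tcf7 (ratio 0.14), for which F is given instead.

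RNA of Igkc and Ighm was abundant in the sorted megakaryocytes. On a scale of mean log2 CPM per kilobase of annotated exon, a level averaged over all 12 libraries, Igkc (ENSMUSG00000076609, chromosome 6, 70726435 to 70726966, plus strand, GRCm38) stood at 9.21 and ranked 32 of 9300 genes. Ppbp and Pf4, chemokine genes of the platelet alpha granule, stood at 9.56 and 9.74 on the same scale. Igkc has only 532 exon bases, and in mean log2 CPM it was at 8.30 against 9.67 for Ppbp and 9.26 for Pf4. The level of Ighm (ENSMUSG00000076617, chromosome 12, 113418558 to 113422730, minus strand) was 7.84 per kilobase, rank 118, and that of Gzma (ENSMUSG00000023132, chromosome 13, 113093825 to 113100981, minus strand) was 6.32, rank 533. Cd79b (ENSMUSG00000040592, chromosome 11, 106311341 to 106314762, minus strand) had a level of 4.95 per kilobase, rank 2061, and Tcf7 (ENSMUSG00000000782, chromosome 11, 52252371 to 52283014, minus strand) a level of 4.48, rank 3048. Other antibody genes stood lower than Igkc and Ighm, with Igha at 5.28 per kilobase, rank 1517, and Jchain at 5.25, rank 1558. In GENCODE M21 Tcf7 overlaps an antisense gene, A630014C17Rik, and a non-coding gene on its own strand, Gm26551, and Igkc lies within the non-coding gene Gm30211 on the same strand. None of the 3 has a row in the megakaryocyte tables, and whether counting used the strand is not given in the sources used here.

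One group stood apart in 4 of the 5 members, the knockout 8N cells, and it did so in opposite directions for the immunoglobulin genes and for Tcf7 and Gzma. The levels of the 4 groups relative to control 8N were rebuilt from the authors' deposited tables on the log2 scale. For Igkc, control 16N-plus was at 0.06, knockout 16N-plus at 0.18 and knockout 8N at -1.66. For Ighm, the same groups were at -0.64, -0.04 and -1.51. For Gzma, control 16N-plus was at -0.20, knockout 16N-plus at -0.19 and knockout 8N at 1.32. Tcf7 was at -0.02, -0.19 and 1.12 in that order. In these rebuilt levels the other 3 groups lay within 0.18 of each other for Igkc, 0.19 for Tcf7 and 0.20 for Gzma, and within 0.64 for Ighm. Some implied SEs were very small, 0.015 for Gzma at 16N-plus and 0.019 for Tcf7 in the control ploidy step. Median implied SEs in their quartiles of mean log2 CPM, leaving out genes of very low F, were 0.30 and 0.24. Whether the deposited fold changes were shrunk towards 0 was not tested, so this closeness is one of deposited values only. Cd79b did not follow either pattern, with control 16N-plus at -0.33, knockout 8N at -0.38 and knockout 16N-plus at -0.58.

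**Figure D1:**
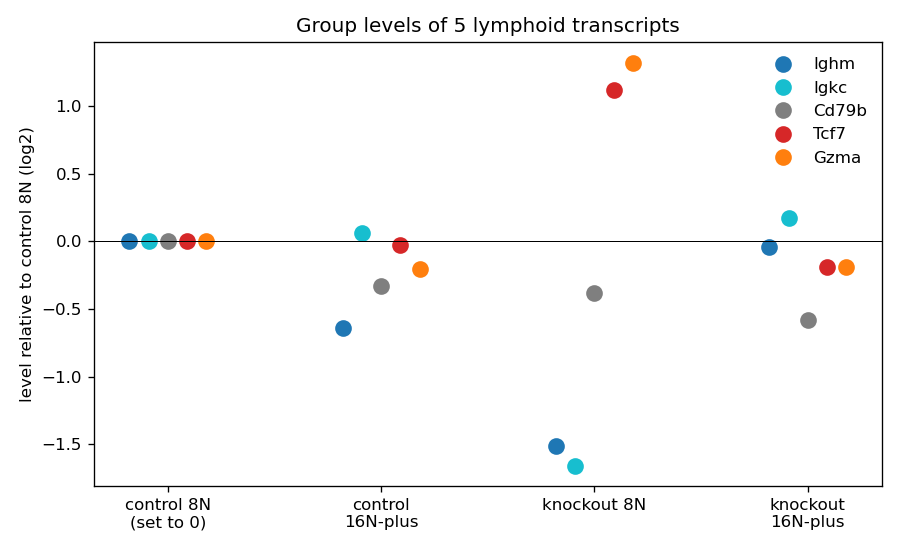
Log2 level of 5 lymphoid transcripts in the 4 megakaryocyte groups (horizontal axis), relative to control 8N, which is set to 0; each point is 1 gene in 1 group, rebuilt from the deposited fold changes, with no error per group to draw. In knockout 8N cells Gzma (1.32) and Tcf7 (1.12) lie above the other groups and Ighm (-1.51) and Igkc (-1.66) below them.

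Immunoglobulin transcripts were lower in knockout than in control 8N cells. Igkc had a log2 fold change of -1.66 (SE 0.23; adjusted p = 1.2e-09 by edgeR), a 3.16-fold lower level, in the authors' deposited table for the 8N gate. Ighm had -1.51 (SE 0.26; adjusted p = 9.5e-06 by edgeR), a 2.85-fold lower level, in the authors' deposited table. Neither passed in the 16N-plus gate: the authors' deposited table gave Igkc 0.11 (SE 0.27; adjusted p = 0.92 by edgeR) and Ighm 0.61 (SE 0.30; adjusted p = 0.39 by edgeR). Of the 5 members listed, 4 were called at 8N, 2 lower and 2 higher, where 1.44% of all genes were called, 1.14% lower and 0.3% higher. At 16N-plus 0 of 5 members were called by the authors' edgeR test, with 1 at an unadjusted p under 0.05, where 3.51% of all genes were called, 3.12% lower and 0.386% higher. Since the members were picked with these comparisons known, nothing is read from those shares. In bulk RNA, fewer lymphoid cells in a sample and less of the RNA per cell cannot be told apart.

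Of the other immunoglobulin genes listed, 1 passed at 8N. The list holds 12 genes, 6 of them with a row. Their median log2 fold change in knockout 8N cells was -0.79 against 0.01 over all genes. There 3 of 6 were called lower and 0 higher, where 1.14% of all genes were called lower and 0.3% higher. Igkc and Ighm were among the 3. The third was Ighg2b, the gamma-2b heavy chain, at -0.98 (SE 0.20; adjusted p = 0.00027 by edgeR) in the authors' deposited table. Relative to control 8N, Ighg2b was at -0.80 in control 16N-plus, -0.98 in knockout 8N and -0.48 in knockout 16N-plus. Control 8N was its highest group, and knockout 8N did not stand apart as it did for Igkc and Ighm. Igha, the alpha heavy chain of mucosal antibody, was at -0.61 (SE 0.20; adjusted p = 0.12 by edgeR), and Jchain, which joins antibody units into polymers, at -0.42 (SE 0.21; adjusted p = 0.60 by edgeR), both without passing in the authors' deposited table. Ighg3, the gamma-3 heavy chain, was at -0.06 (adjusted p = 0.88 by edgeR) in the authors' deposited table. The gamma heavy chain genes resemble each other in sequence, so their reads could be split between them. At 16N-plus all 6 listed genes were above 0 and 0 were called by the authors' edgeR test, with 2 of them at p under 0.05 before adjustment. Their median was 0.29 against 0.07 over all genes.

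**Figure D2:**
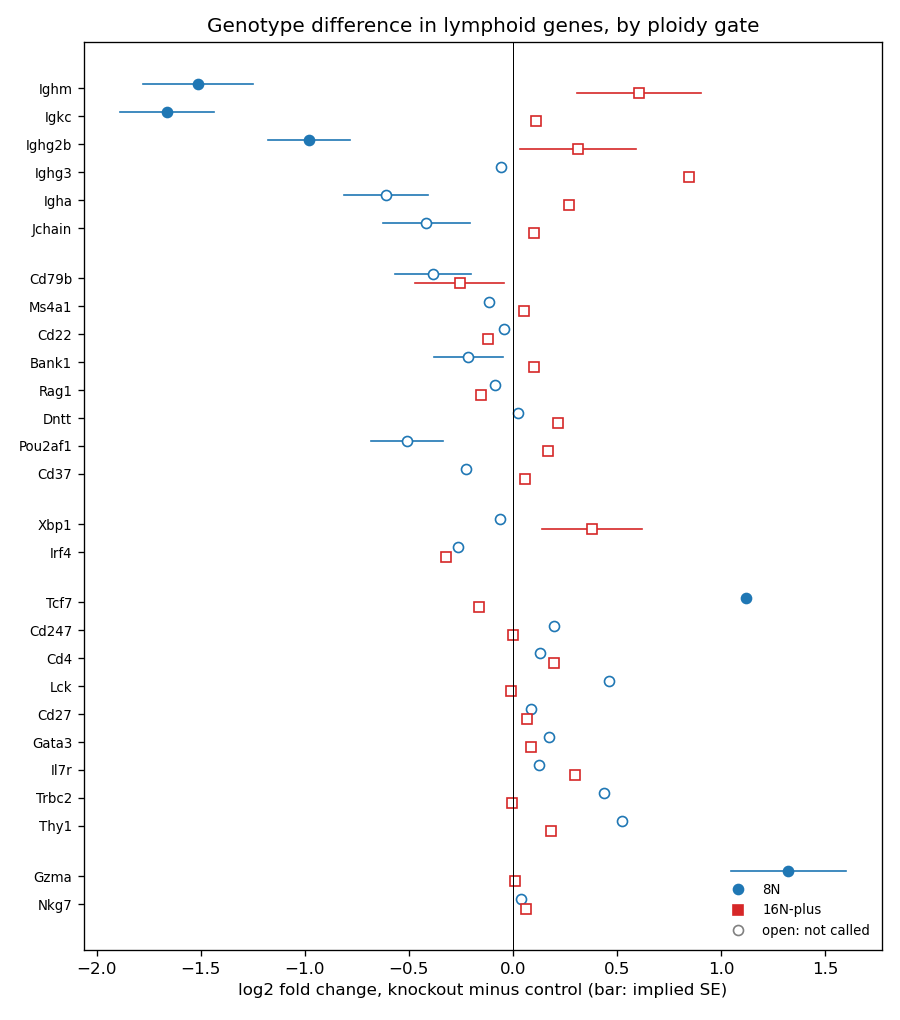
Log2 fold change of knockout minus control (horizontal axis) for 27 genes of 5 lymphoid lists, at 8N (circles) and 16N-plus (squares); filled symbols were called by the authors, and bars show the implied SE where F was above 1 and the variances matched within 1.5-fold. At 8N the immunoglobulin genes Igkc (-1.66) and Ighm (-1.51) lie to the left while Tcf7 (1.12) and Gzma (1.32) lie to the right, and the squares lie between -0.32 and 0.85.

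Between the gates, immunoglobulin RNA differed in knockouts. From 8N to 16N-plus in knockouts the authors' deposited table gave Igkc 1.84 (SE 0.23; adjusted p = 8.4e-11 by edgeR) and Ighm 1.48 (SE 0.27; adjusted p = 1.6e-05 by edgeR). This step and the genotype comparison at 8N share the knockout 8N libraries, so they are not independent. Of the 6 listed immunoglobulin genes 5 were called higher in this step and 0 lower, with a median of 1.16 against -0.05 over all genes, where 3.31% of all genes were called, 2.1% higher and 1.21% lower. Besides the members these were Igha at 1.36 (SE 0.24), Jchain at 0.97 (SE 0.25) and Ighg3 at 0.84 (adjusted p = 0.0016 by edgeR) in the authors' deposited table. Ighg2b was the listed gene not called. The called genes did not share the profile of Igkc. Relative to control 8N, Ighg3 was at -0.06 in control 16N-plus, -0.06 in knockout 8N and 0.79 in knockout 16N-plus. In that order Igha was at 0.48, -0.61 and 0.75, and Jchain at 0.45, -0.42 and 0.55. In controls the same step gave 0 of 6 called by the authors' edgeR test, with 2 at an unadjusted p under 0.05, where 7.25% of all genes were called, 4.74% higher and 2.51% lower. Their median there was 0.00 against -0.11 over all genes. Igkc was at 0.06 (adjusted p = 0.93 by edgeR) in controls and Ighm at -0.64 (SE 0.30; adjusted p = 0.21 by edgeR), in the authors' deposited table. Antibody variable segments were read from the annotation as a list added after values were seen. Of 18 with a row, all with a mean log2 CPM between 4.23 and 5.27, 0 were called in this step of knockouts by the authors' edgeR test, with 3 at an unadjusted p under 0.05, and 15 were above 0. These segments lay near the floor, in quartile 1 (lowest) of mean log2 CPM, which ran from 4.23 to 5.32 over all genes. At 8N 1 segment was called, Ighv11-2, a heavy chain segment common in B-1 cells, at -0.56 (adjusted p = 0.045 by edgeR) in the authors' deposited table.

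**Figure D3:**
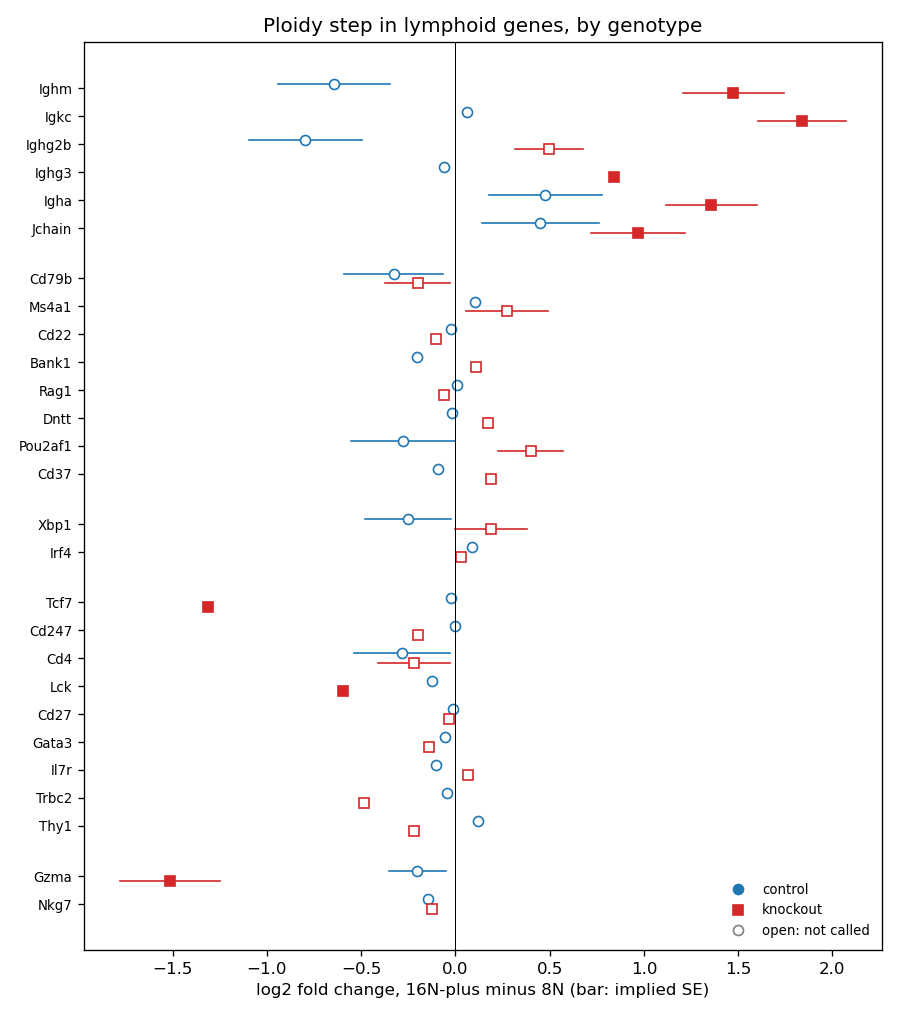
Log2 fold change of 16N-plus minus 8N (horizontal axis) for the same 27 genes in controls (circles) and knockouts (squares); filled symbols were called by the authors and bars show the implied SE under the same rule as for genotype. In knockouts Igkc (1.84), Ighm (1.48), Igha (1.36), Jchain (0.97) and Ighg3 (0.84) lie to the right and Gzma (-1.51), Tcf7 (-1.31) and Lck (-0.60) to the left, while no control circle is filled.

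Cd79b and the other listed B cell genes were not called in megakaryocytes. Cd79b was at -0.38 (SE 0.18; edgeR p = 0.035 unadjusted, adjusted p = 0.53) between genotypes at 8N and at -0.26 (SE 0.21; adjusted p = 0.69 by edgeR) at 16N-plus in the authors' deposited tables. Its ploidy steps were -0.33 (SE 0.26; adjusted p = 0.55 by edgeR) in controls and -0.20 (SE 0.17; adjusted p = 0.71 by edgeR) in knockouts, as the authors deposited them. Of the 25 genes of the B cell list 8 had a row, and 0 of 8 were called by the authors' edgeR test in any of the 5 megakaryocyte comparisons, with 2 at an unadjusted p under 0.05 at 8N, where 1.44% of all genes were called. The difference from the immunoglobulin list was not tested. Their median at 8N was -0.16, with 7 of 8 below 0. The next lowest after Pou2af1, a coactivator of immunoglobulin genes at -0.51 (SE 0.17; adjusted p = 0.15 by edgeR), was Cd79b, in the authors' deposited table. Ms4a1, which encodes CD20, was at -0.11 (adjusted p = 0.94 by edgeR) and Cd37, a leukocyte tetraspanin gene, at -0.23 (adjusted p = 0.93 by edgeR). The B cell transcription factor genes Pax5 and Ebf1 have no row among the megakaryocyte rows used here. Of 7 plasma cell genes 2 had a row, and 0 of 2 were called in any megakaryocyte comparison by the authors' edgeR test, with 0 at an unadjusted p under 0.05. Over all genes 7.25% were called in the control step, 3.31% in the knockout step, 1.44% at 8N, 3.51% at 16N-plus and 4.19% over both ploidies. At these shares, 0 calls among so few B cell or plasma cell genes say little about either list. Low genes had narrower deposited fold changes, with a standard deviation at 8N of 0.17 in quartile 1 (lowest) of mean log2 CPM and 0.31 in quartile 4 (highest). Cd79b, at a mean log2 CPM of 5.47, lies in quartile 2, and Igkc and Ighm, at 8.30 and 8.76, in quartile 4.

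MHC class II genes, which B cells share with macrophages and dendritic cells, had 6 of 7 genes listed. At 8N 0 of 6 were called by the authors' edgeR test, with 3 at an unadjusted p under 0.05 and all 6 below 0 (median -0.39). There 1.44% of all genes were called. The authors' deposited table over both ploidies called H2-Ab1, a class II beta chain gene, at -0.69 (adjusted p = 0.011 by edgeR). Of 7 plasmacytoid dendritic cell genes 4 had a row, and 0 of 4 were called in any megakaryocyte comparison by the authors' edgeR test, with 1 at an unadjusted p under 0.05 at 8N and 2 in the knockout ploidy step. The comparisons called from 1.44% (8N) to 7.25% (control step) of all genes, so 0 calls among so few genes say little about the list.

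Tcf7 was higher in knockout than in control 8N cells, opposite in sign to the immunoglobulin genes in the same libraries. The authors' deposited table gave it 1.12 at 8N (F = 35.1; adjusted p = 4.1e-06 by edgeR), a 2.18-fold higher level, and -0.16 at 16N-plus (F = 0.088; adjusted p = 0.94 by edgeR). Between the gates Tcf7 was at -1.31 in knockouts (F = 37.0; adjusted p = 1.2e-06 by edgeR) and at -0.02 in controls (F = 1.62; adjusted p = 0.55 by edgeR), in the authors' deposited tables. Of the 27 T cell genes 9 had a row. All 9 were above 0 at 8N, with a median of 0.20 against 0.01 over all genes. There 1 of 9, Tcf7, was called, where 1.44% of all genes were called. Lck, the kinase of T cell receptor signalling, was called lower in the knockout ploidy step at -0.60 (adjusted p = 0.040 by edgeR) in the authors' deposited table. Trbc2, a T cell receptor beta constant region, was at 0.44 at 8N (adjusted p = 0.84 by edgeR) and Thy1, a T cell surface gene, at 0.52 (adjusted p = 0.14 by edgeR), without passing in the authors' deposited table. Trbc2, at a mean log2 CPM of 4.81, lay in quartile 1 (lowest). The CD3 genes Cd3d, Cd3e and Cd3g have no row among the megakaryocyte rows used here.

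Gzma behaved like Tcf7. In knockout 8N cells the authors' deposited table gave it 1.32 above control (SE 0.28; adjusted p = 0.00058 by edgeR), a 2.5-fold higher level. At 16N-plus the authors' deposited table gave 0.01 (adjusted p = 0.83 by edgeR). The knockout ploidy step was -1.51 (SE 0.26; adjusted p = 6.1e-06 by edgeR) and the control step -0.20 (SE 0.15; adjusted p = 0.53 by edgeR) in the authors' deposited tables. Among 19 NK and cytotoxic genes only Gzma and Nkg7, a cytotoxic granule membrane gene, had a row. Nkg7 was at 0.04 at 8N (adjusted p = 1 by edgeR) in the authors' deposited table, with a mean log2 CPM of 4.73 against 6.33 for Gzma. That level lies in quartile 1 (lowest), which began at 4.23. Prf1, Ncr1 and Klrd1, which also mark NK cells, have no row among the megakaryocyte rows used here.

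In the knockout ploidy step Gzma was called lower and Jchain, 1 of the 5 antibody genes called there, higher. Between genotypes at 8N Gzma was called higher and Jchain was not called. The stretch just upstream of each of these 2 genes is shown for context. Each is the 250 bases before the RefSeq start in GRCm38.p6, read on the minus strand, which is the strand of both genes (chr13:113100982-113101231 and chr5:88527898-88528147). Capitals mark E-box letters CAGCTG or CAGGTG, searched on both strands.
Gzma: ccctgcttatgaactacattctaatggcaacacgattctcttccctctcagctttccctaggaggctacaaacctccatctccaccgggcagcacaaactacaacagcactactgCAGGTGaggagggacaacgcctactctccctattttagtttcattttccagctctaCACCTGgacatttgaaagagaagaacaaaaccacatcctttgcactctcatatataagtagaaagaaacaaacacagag
Jchain: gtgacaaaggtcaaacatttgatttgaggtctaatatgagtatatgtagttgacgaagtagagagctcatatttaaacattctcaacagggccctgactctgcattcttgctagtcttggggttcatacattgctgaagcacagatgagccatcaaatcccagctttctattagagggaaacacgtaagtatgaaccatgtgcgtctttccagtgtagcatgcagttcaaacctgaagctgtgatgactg
Gzma holds 2 such matches and Jchain 0, and 27.4% of 27025 upstream stretches of the same length hold at least 1. The octamer ATGCAAAT, the letters CTTTGA and the letters CCGGAA had 0 matches in either stretch on either strand, and occur in 1.61%, 14.1% and 12.2% of all stretches. These are matches of letters only. Of the 6 members, Cd79a, Tcf7 and Gzma were matched in the RefSeq table. The Cd79a stretch held 1 E-box match. Of the 2 Tcf7 stretches, 1 held 1 E-box match and the other 1 match of CCGGAA. Whether either Tcf7 stretch holds exon sequence of another Tcf7 transcript was not tested, so these matches are not placed in a promoter.

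The comparison over both ploidies called fewer members than the 4 called at 8N and more than the 0 called at 16N-plus. In the authors' deposited table over both ploidies, 1 of 5 members was called, Igkc at -0.77 (SE 0.15; adjusted p = 5.7e-05 by edgeR), where 4.19% of all genes were called, 0.622% higher and 3.57% lower. Ighm was at -0.45 (SE 0.18; adjusted p = 0.17 by edgeR), Tcf7 at 0.48 (adjusted p = 0.15 by edgeR), Gzma at 0.67 (SE 0.36; adjusted p = 0.40 by edgeR) and Cd79b at -0.32 (SE 0.16; adjusted p = 0.35 by edgeR), as the authors deposited them.

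An approximate interaction test of the genotype effect between gates called 3 members. They were chosen with the fold changes of both gates in view, so these calls are a description. The test divides the difference of the authors' fold changes by its SE, combined from the SEs of both gates. It called 0.731% of 9305 genes, 0.172% with a positive and 0.559% with a negative difference. Ighm differed by 2.12 (SE 0.40; adjusted p = 8.8e-05, normal approximation from edgeR values), Igkc by 1.77 (SE 0.36; adjusted p = 0.00034) and Gzma by -1.31 (SE 0.28; adjusted p = 0.00086). For Gzma the implied SE was 0.28 at 8N and only 0.015 at 16N-plus. Its call therefore nearly repeats the comparison at 8N, with almost no error counted for 16N-plus. Tcf7 differed by -1.29 (SE 0.59; adjusted p = 0.54), but its SEs did not match between tables. With SEs from the ploidy tables, an alternative added after the values were seen, the same Tcf7 difference had an SE of 0.22 and passed (adjusted p = 4.3e-06), and 4 of 5 members were then called. Cd79b differed by 0.13 (SE 0.28; adjusted p = 1.00). Of the 6 immunoglobulin genes 3 were called, the third being Ighg2b at 1.29 (SE 0.34; adjusted p = 0.025), and all 6 differences were above 0. With a t distribution of 8 degrees of freedom in place of the normal, 0 of 5 members and 0 of all genes were called.

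The place of the members among all genes restates how they were chosen, with these comparisons in view, and is given as a description. Taking the knockout 8N level minus the mean of the other 3 groups, Gzma had the highest value of 9326 genes, at 1.45, and Tcf7 ranked 6 from the top at 1.19. Igkc ranked 13 from the bottom at -1.74 and Ighm 44 from the bottom at -1.29. Cd79b lay at -0.08, in the body of the distribution.

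**Figure D4:**
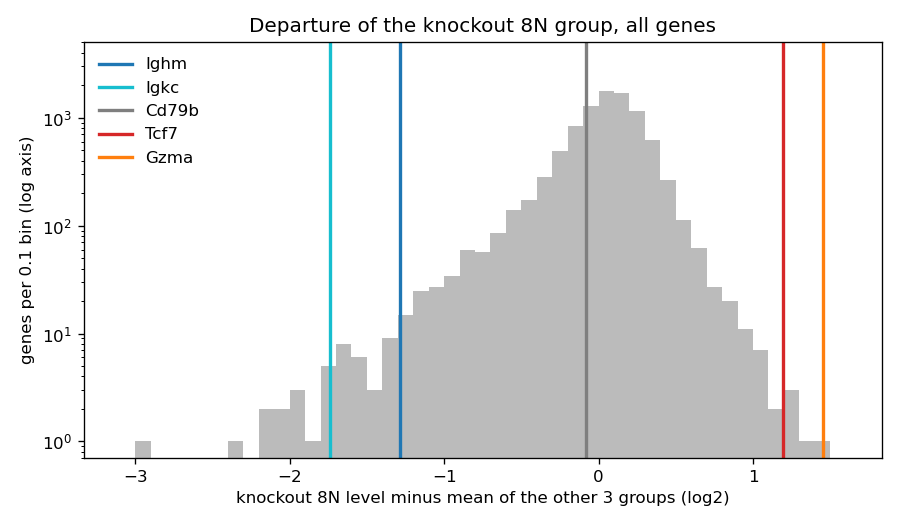
Number of genes (vertical log axis) by the knockout 8N level minus the mean of the other 3 megakaryocyte groups (horizontal axis, log2, bins of 0.1), with a coloured line at each of 5 members. Gzma (1.45) and Tcf7 (1.19) stand at the right edge, Ighm (-1.29) and Igkc (-1.74) in the left tail and Cd79b (-0.08) near the middle.

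The genes with the most similar profiles over the 4 groups were found by Euclidean distance among 9299 others, after centring each gene on its own mean; this is a description over 4 groups. For Ighm the nearest were Igkc (distance 0.65), Ighg2b (0.71) and Ccr2 (0.74), a monocyte chemokine receptor gene. For Igkc they were Ighm (0.65), the ubiquitin protease gene Usp32 (0.74) and Igha (0.75). Gzma had Rps12 (0.18), Rps15a (0.26) and Tcf7 (0.27), and Tcf7 had Coro2a (0.08), Rps12 (0.22) and Rps24 (0.23). Rps12, Rps15a and Rps24 encode proteins of the small ribosomal subunit. Rps12 was at 1.06 in the genotype comparison at 8N (adjusted p = 0.00097 by edgeR) in the authors' deposited table. Cd79b had close neighbours at 0.01 to 0.03, Plbd1, Pura and Prpf38b, none of them called at 8N.

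Some markers of other marrow cells, and of megakaryocytes themselves, were called in the same comparisons. Over all genes, 1.14% were called lower and 0.3% higher at 8N, and 3.12% lower and 0.386% higher at 16N-plus. Of 15 megakaryocyte markers 5 were lower and 0 higher in knockouts at 8N, with all 15 below 0, and 7 were lower and 0 higher at 16N-plus. Tubb1, the platelet beta tubulin gene, and Ppbp ranked 1 and 3 from the bottom in the knockout 8N level minus the mean of the other groups, at -2.98 and -2.16. At 8N 2 of 5 listed eosinophil markers were lower in knockouts and 0 higher, Prg2 at -1.32 (SE 0.18) and Epx at -1.37 (adjusted p = 4.8e-05 by edgeR), both granule proteins, in the authors' deposited table. Neutrophil markers numbered 17, of which 3 fell and 0 rose at 8N, with Mpo, myeloperoxidase, at -0.98 (adjusted p = 0.0051 by edgeR) and Ngp, a granule protein gene, at -0.85 (adjusted p = 0.048 by edgeR) in the authors' deposited table. At 16N-plus 2 neutrophil markers were higher and 0 lower, Lcn2 at 1.28 and Mmp9 at 1.09. Of 10 erythroid markers 1 was lower at 8N and 0 higher, the anion exchanger gene Slc4a1 at -1.09 in the authors' deposited table. Of 14 macrophage markers 0 were called at 8N by the authors' edgeR test, with 6 at an unadjusted p under 0.05, and of 3 basophil and mast cell markers 0 were called, with 0 at an unadjusted p under 0.05. The called eosinophil and neutrophil markers had the sign of Igkc and Ighm at 8N, but over the 4 groups control 8N was the group that stood apart for Prg2, Epx and Mpo. Relative to control 8N, Prg2 was at -1.56 in control 16N-plus, -1.32 in knockout 8N and -1.69 in knockout 16N-plus. In the control ploidy step 2 of 5 eosinophil, 5 of 17 neutrophil and 10 of 14 macrophage markers were lower and 0 higher, and in the knockout step 7 of 14 macrophage markers were lower and 0 higher. The shares over all genes were 2.51% lower and 4.74% higher in the control step, and 1.21% lower and 2.1% higher in the knockout step. In the knockout ploidy step 0 of 5 eosinophil markers were called by the authors' edgeR test, with 0 at an unadjusted p under 0.05, and 1 of 17 neutrophil markers was called higher, Csf3r, the receptor of granulocyte colony stimulating factor, at 0.99. The part of these markers in the lymphoid differences was not tested. No value per library was used here, so whether 1 library sets the knockout 8N levels was not tested.

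In platelets, lymphoid RNA was measured by another assay, an amplicon panel made from 10 ng of RNA, and levels were not compared with megakaryocytes. None of the 3 listed members was called: 0 of 3 passed the authors' DESeq2 test, with 1 at an unadjusted p under 0.05, where 53.2% of all tested genes were called, 28.2% higher and 25.0% lower. Cd79b was at -0.73 (SE 0.48; adjusted p = 0.20 by DESeq2) on a mean normalised count of 112 in the authors' deposited table. Gzma was at -1.25 (SE 0.59; adjusted p = 0.061 by DESeq2) on a mean of 12.9, and Tcf7 at -0.56 (SE 0.96; adjusted p = 0.66 by DESeq2) on a mean of 112, in the authors' deposited table. Since the platelet direction is not stated and these values did not pass, their signs were not compared with those in megakaryocytes.

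Over the 5 lymphoid lists, 64 genes were tested in platelets and 8 were called, 2 higher and 6 lower in knockouts. That is 12.5%, under the 53.2% of all genes. The tested lymphoid genes had a median mean count of 18.4 and a median SE of 0.60, against 30.5 and 0.44 over all tested genes. Most of them, 48 of 64, lay below 0 (median -0.52), against 6240 of 12611 for all genes (median 0.02). Of 21 tested B cell genes 19 were below 0 with a median of -0.73, and 2 were called lower: Vpreb3, a pre-B cell gene, at -1.55 (SE 0.54), and Fcrla, an Fc receptor-like gene of B cells, at -1.23 (SE 0.50), in the authors' deposited table. Against these, Dntt, the DNA polymerase that adds bases at receptor gene joints in lymphoid progenitors, was higher at 4.82 (SE 0.45; adjusted p = 1.8e-25 by DESeq2) in the authors' deposited table. In megakaryocytes Dntt was at 0.03 at 8N and 0.22 at 16N-plus and was not called.

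**Figure D5:**
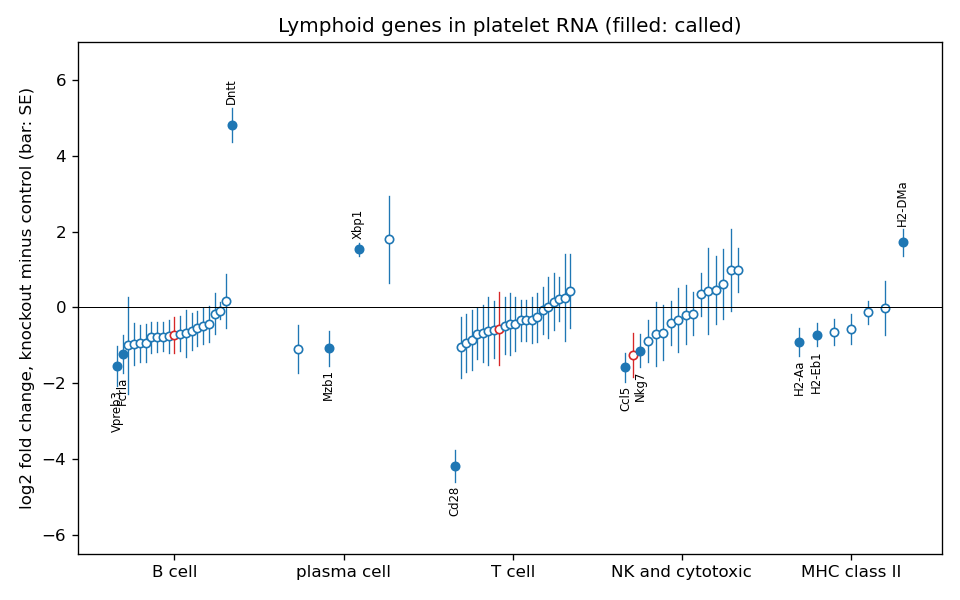
Log2 fold change in platelet RNA, knockout minus control (vertical axis), of tested genes in 4 lymphoid lists and the MHC class II list, ordered by value within each list; bars show the deposited SE, filled points were called and members are red. Most points lie just below 0 and are open, with Dntt (4.82) far above and Cd28 (-4.19) far below.

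Of 22 tested T cell genes 17 were below 0 and 1 was called, Cd28, the costimulatory receptor gene, lower at -4.19 (SE 0.42; adjusted p = 2.9e-22 by DESeq2) on a mean normalised count of 490 in the authors' deposited table. The CD3 genes, which define T cells, had means of 10.0 to 11.9 and values of -0.44 for Cd3d, -0.26 for Cd3g and 0.16 for Cd3e, none called. Of 16 tested NK and cytotoxic genes 2 were lower, Ccl5, a chemokine gene also stored as protein in platelets, at -1.58 (SE 0.38) and Nkg7 at -1.14 (SE 0.44). Of 4 tested plasma cell genes Xbp1, a regulator of secretory cells that many other cells express, was higher at 1.53 (SE 0.17) and Mzb1, a chaperone gene of antibody secreting cells, lower at -1.08 (SE 0.46). Jchain, the immunoglobulin list's tested gene, was at 0.03 (SE 0.74) on a mean of 5.4, in the authors' deposited table. Of 7 MHC class II genes 2 were lower, H2-Aa at -0.91 (SE 0.37) and H2-Eb1 at -0.72 (SE 0.31), and 1 higher, H2-DMa at 1.72 (SE 0.35). Of 7 plasmacytoid dendritic cell genes Bst2, an interferon-induced gene, was higher at 2.95 (SE 0.36) and Tcf4 lower at -1.47 (SE 0.48). Erythroid markers moved in the same platelet table, with 7 of 8 tested genes called higher, as did megakaryocyte markers, with 11 of 15 lower; their part in these values was not tested.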

How the data were processed

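The authors used, per the submitters' processing notes, the build mm10 and DESeq2, edgeR, featureCounts, Subread, Picard, STAR and Trimmomatic, with no version given. The authors' edgeR output, per the file headers, fills 5 megakaryocyte tables of 9326 genes with each log2 fold change, CPM on a log2 scale (mean), F score, p-value and adjusted p-value. The authors' deposited platelet table holds 23930 rows of DESeq2 output: the signal (mean count over size factors), log2 fold change with SE, test score, p-value and, for 12611 rows, adjusted p-value. Symbols came from the gene name table for 9300 of 9326 identifiers and loci from GENCODE M21 (GRCm38). Python 3.11.15 with pandas 2.3.3, numpy 2.4.6, scipy 1.17.1 and matplotlib 3.10.9 computed the implied SEs, group levels, distances and interaction. The interaction code was run on simulated normal values and given their true SE. That run does not test the implied SEs or the normal approximation. The members and lists were chosen with earlier results of these data known. Genes named are the members, called genes of the fixed lists (the largest changes), each member's 3 nearest genes, and list genes picked after their values were seen to show members that were not called. Which platelet controls entered the comparison is not stated, so 1 comparison is given. Alternatives were centring on the median gene, an adjusted p under 0.01, only genes above the median level, a t distribution and SEs from the ploidy tables.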

Additional observations from a re-analysis of the deposited data

Results flagged for a closer look

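The approximate interaction test called the genotype effect different between the 2 ploidy gates for 3 lymphoid transcripts. They were chosen with the fold changes of both gates in view, so this is a description. The difference, 16N-plus minus 8N, was 2.12 for Ighm, 1.77 for Igkc and -1.31 for Gzma on the log2 scale. The SE of the Gzma difference came almost wholly from the 8N gate. Ighm and Igkc were lower in knockouts at 8N and not called at 16N-plus; Gzma was higher at 8N and not called at 16N-plus. All 3 lost the call with a t distribution of 8 degrees of freedom (adjusted p = 0.52, 0.52 and 0.56).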

How the results depend on the processing

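Single values of members kept their direction and side of the threshold in 90 of 96 recomputations. Only centring on the median gene changes a fold change, and there 31 values stayed the same and 2 reversed. The other settings could change only the side of the threshold. Centring on the median gene turned the sign of Tcf7 in the control ploidy step to 0.082 and of Gzma in the 16N-plus genotype comparison to -0.063. Both then passed, since their implied SEs were 0.019 and 0.015, so 1 member was called in each comparison in place of 0. With the t distribution of 8 degrees of freedom 0 members were called in the interaction in place of 3, and 0 genes in place of 68. With SEs from the ploidy tables Tcf7 passed the interaction at -1.29. No other setting moved a count of called members by over 1.5 times. Over all genes, an adjusted p under 0.01 left 405 of 676 calls in the control ploidy step, 176 of 309 in the knockout step, 81 of 134 in the genotype comparison at 8N, 259 of 391 over both ploidies and 43 of 68 in the interaction. Centring changed the split of higher and lower calls from 442 and 234 to 627 and 131 in the control step, and from 196 and 113 to 279 and 93 in the knockout step. Keeping only genes above the median level left 3 of 5 members in the megakaryocyte fits, without Cd79b and Tcf7, and 2 of 3 in platelets. No paired analysis was possible because the deposited tables give comparisons and no values per library; leaving out replicates was not run for the same reason. The unknown depth per library limits what can be said of low genes.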
